A study of Mus musculus with 39 samples.

Results

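The genes described are Socs2, Rasal3, Matk, Cnr2, Trpm2, Fcho1, Bmp2k, Chd7, Tmem140 and Itgbl1, 10 of the 39676 genes in the deposited count table, of which 28827 had at least 1 count. They were chosen by their measured values, as genes that differed most by response label among tumours of mice given tretinoin together with immune checkpoint therapy (ICT), and were matched by symbol. Values of that contrast are therefore given as a description only, and tests are given for the treatments. Of the 14604 genes ranked by p between responders and non-responders (edgeR), Chd7 stood in place 1, the next 8 members stood between places 4 and 13, and Tmem140 stood at 289. Matk, in place 13, differed by 0.72 on the log2 scale, and Timm8a1, just outside in place 14, differed by -0.48. In the same ranking E230029C05Rik, Gm12424, Flt3l and Aurkb stood in places 2, 3, 7 and 8 and are not members.

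All 39 tumours were subcutaneous AB1-HA tumours in BALB/c mice. AB1-HA cells derive from a mesothelioma of the mouse, carry the influenza virus haemagglutinin gene, and as a single line gave rise to all tumours. The PBS group held 10 tumours, the Tretinoin group 9 and the ICT group 10, and the Tretinoin+ICT group 10, of which 6 were labelled responder and 4 non-responder. By the labels, tretinoin (all-trans retinoic acid, a vitamin A derivative) was given at 5 mg/kg in 5 daily doses from day 4, and ICT was 100 µg each of antibodies against CTLA-4 and PD-L1 on day 7. Tumours were resected on day 9, from mice that carried another tumour on the opposite flank, where response was read. The response label states what became of that other tumour after resection, so it is not a property of the sequenced tissue, and tumours of the other treatments carry no such label. The schedule in the labels differs in part from that in the study's text, and the labels give no age of the mice. Tumours are named here by the 2-digit number in their label. The first digit forms 2 series in every treatment (1 and 5 in PBS, 3 and 7 in Tretinoin, 6 and 8 in ICT, 2 and 4 in Tretinoin+ICT), and what the digit stands for is not stated, so series and treatment cannot be told apart.

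Most of the genes are known from white blood cells. Cytokine receptors signal through JAK kinases to STAT factors, and SOCS proteins, made in response, shut that signal down. Antigen receptors signal through Src family kinases and Ras, and each of these steps has its own brake. Clathrin-coated pits take such receptors up from the cell surface. Checkpoint antibodies release T cells from inhibition, and tretinoin acts through nuclear retinoic acid receptors.

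Library totals lay between 14033046 and 37951183 counts (median 18548168), the deepest being that of a responder. Each of the 10 genes was counted in every tumour, with the lowest count at 89 for Cnr2 and the highest at 5009 for Itgbl1, and all 10 passed the filter on low counts in every comparison. Levels are given as CPM, the share of a library's counts that fell on a gene scaled to a common total, after TMM normalisation over the 39 tumours. RNA came from whole tumours, in which fewer cells of a type and less RNA per cell cannot be told apart. The summed level of 6 general leukocyte markers (Ptprc, Coro1a, Laptm5, Lcp1, Cd53 and Cd52) ranged from 1137 to 2046 CPM in PBS, 1199 to 2366 in Tretinoin, 1161 to 3586 in ICT, 1562 to 2556 in non-responders and 1942 to 3410 in responders. The 5 mesothelial markers found in the table summed to between 58.2 and 100.2 CPM over all tumours, whereas 5 fibroblast and collagen genes summed to at least 11855 CPM. Within their treatments PBS tumour 14, Tretinoin tumour 33 and ICT tumours 63 and 82 stood apart in several of the 10 genes and had the highest leukocyte sums of their groups. Some results between treatments are therefore also given without these 4 tumours.

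Levels per exon length were available for 8 of the genes, whose identifiers matched GENCODE M21 on GRCm38 with their version. Itgbl1 was by far the highest of the 8 in PBS tumours, at 48.1 CPM per kb of exon, followed by Bmp2k at 8.05, Rasal3 at 4.63 and Matk at 3.23. Tmem140 (1.78), Cnr2 (1.73), Fcho1 (1.65) and Socs2 (1.17) were lowest. In Tretinoin+ICT tumours Itgbl1 stood at 30.2 and Socs2 at 3.11 CPM per kb, so the lead of Itgbl1 narrowed but remained. In that annotation Socs2 lies at chr10:95385362-95417180 on the minus strand, Rasal3 at chr17:32390659-32403583 (minus), Matk at chr10:81252935-81263365 (plus) and Cnr2 at chr4:135895394-135920207 (plus). Fcho1 lies at chr8:71708387-71725716 (minus), Bmp2k at chr5:96997689-97091867 (plus), Tmem140 at chr6:34863146-34874946 (plus) and Itgbl1 at chr14:123659971-123975618 (plus), and all 8 are protein-coding.

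The brakes on signalling come first. Socs2, a suppressor of cytokine signalling that is itself switched on by STAT5, was at 17.2, 18.8, 18.8 and 23.2 CPM in the non-responders and ranged from 26.1 to 43.03 CPM, with a median of 37.3, in the 6 responders. Rasal3, a Ras GTPase activating protein of blood cells that turns Ras off, was at 28.6, 33.3, 33.6 and 34.3 CPM in the non-responders, against 38.5 to 58.7 CPM with a median of 55.5 in responders. Matk, which like Csk silences Src family kinases, was at 12.3, 13.3, 14.1 and 15.7 CPM against 16.7 to 25.7 CPM with a median of 23.4. No responder overlapped a non-responder in any of the 3 genes. On the log2 scale the responders stood higher by 0.90 ± 0.14 for Socs2, 0.71 ± 0.11 for Rasal3 and 0.72 ± 0.13 for Matk (SE, edgeR).

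Cnr2, the cannabinoid receptor of leukocytes, had the largest difference of the 10 genes, 1.16 ± 0.21 on the log2 scale. It was at 8.33, 10.6, 11.4 and 11.8 CPM in non-responders and at 16.3 to 33.9 CPM, median 24.6, in responders. Trpm2, a calcium-permeable channel that ADP-ribose opens, was at 19.4, 21.9, 22.2 and 27.0 CPM against 29.7 to 45.3 CPM, median 37.5, a difference of 0.70 ± 0.13. Both were higher in every responder than in every non-responder.

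Bmp2k and Fcho1 both act at clathrin-coated pits, Bmp2k as a kinase related to the adaptor kinase Aak1 and Fcho1 as a membrane-bending protein that helps to start a pit. Bmp2k was at 73.7, 75.1, 83.4 and 84.8 CPM in non-responders and at 95.3 to 113 CPM, median 107, in responders, the smallest difference of the 10 (0.42 ± 0.07) with little spread within either group. Fcho1 was at 9.67, 10.1, 10.5 and 14.3 CPM against 14.2 to 24.2 CPM, median 21.6 (0.91 ± 0.16). Here the groups overlapped, since responder 43, at 14.2 CPM, lay just under non-responder 23.

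Chd7, a chromatin remodeller that slides nucleosomes, was at 50.5, 50.8, 55.9 and 59.4 CPM in non-responders and at 70.9 to 97.1 CPM, median 88.6, in responders (0.70 ± 0.09). Tmem140, a little-studied membrane protein, was at 14.6, 18.3, 19.3 and 22.5 CPM against 21.7 to 33.9 CPM, median 28.1 (0.61 ± 0.15), and 1 responder lay under the highest non-responder. Itgbl1, a secreted protein with the repeats of integrin beta chains, ran the other way, at 148, 150.04, 160 and 191 CPM in non-responders and 85.9 to 131 CPM, median 103, in responders, a difference of -0.63 ± 0.11.

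**Figure D1:**
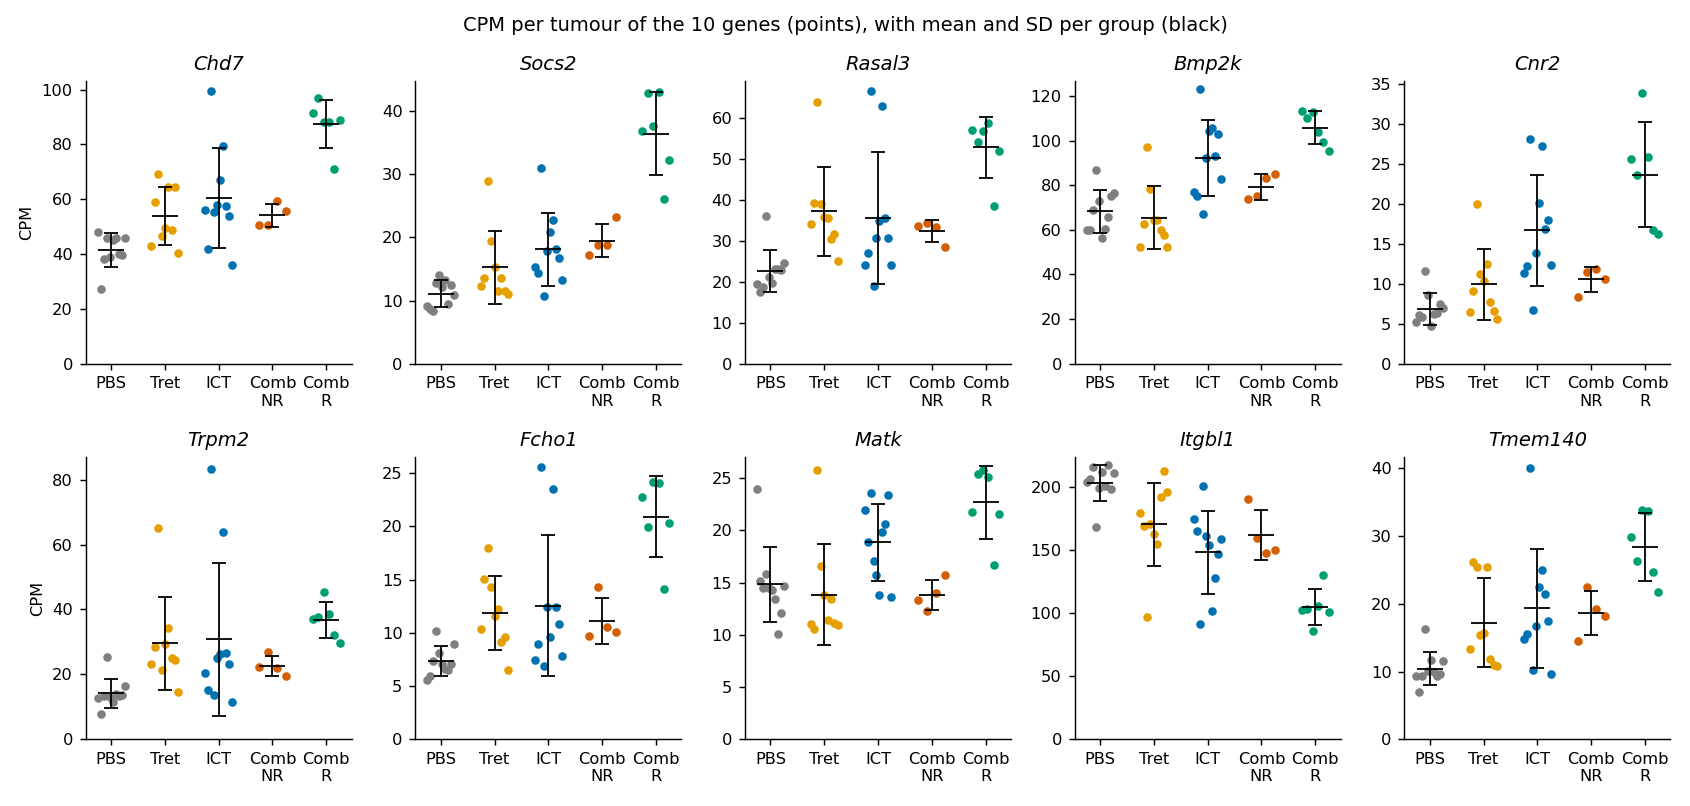
CPM (vertical axis, from 0) of the 10 genes in each of the 39 tumours, by group (Tret, Tretinoin; Comb NR and Comb R, non-responders and responders given Tretinoin+ICT); points are tumours, black lines mean and SD. Responders lie above all non-responders in 7 genes and below them in Itgbl1, while single Tretinoin and ICT tumours reach the responders' levels.

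The 2 groups did not overlap in 8 of the 10 genes. Over all tested genes, 2.28% were higher and 3.11% lower in every responder than in any non-responder; the choice of the genes fixes this count, so nothing is read from it. By edgeR's quasi-likelihood test 0 of 14604 genes (0%) passed an adjusted p of 0.05 between responders and non-responders, 3302 had an unadjusted p below 0.05, and DESeq2 placed 864 higher and 537 lower at adjusted p. The count of 0 rested on responder 43: without it edgeR called 971 genes higher and 834 lower of 14540, whereas leaving out any 1 of the other 9 tumours gave at most 1 call. The differences are also given by name series, as a description whose direction the choice of the genes largely fixes. In series 2 (2 responders, 3 non-responders) the difference in mean log2 CPM ranged from 0.53 for Bmp2k to 1.23 for Cnr2 among the 9 genes and was -0.68 for Itgbl1. In series 4 (4 responders, 1 non-responder) it ranged from 0.27 to 1.048 for the same 2 genes and was -0.52 for Itgbl1. Responder 43 was the lowest responder in Chd7, Socs2, Rasal3, Fcho1 and Matk and the highest in Itgbl1, and its leukocyte sum of 1942 CPM was also the lowest of the responders.

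General leukocyte markers moved with the label. All 6 were higher on average in responders, with a median difference of 0.41 on the log2 scale, but their sums overlapped, as did Ptprc (CD45, carried by all white blood cells) with a difference of 0.45. Macrophage markers (7 of 7 higher, median 0.37), T cell markers (10 of 10, median 0.63), dendritic cell markers (7 of 7, median 0.49) and monocyte markers (5 of 5, median 0.73) were also higher, as were 4 of 4 eosinophil (0.82), 4 of 4 skin (1.28) and 3 of 3 mesothelial genes (0.83) that could be tested. The skin genes were low, and their sum had a lower median in responders (3.47 CPM, range 1.35 to 66.7) than in non-responders (6.37 CPM, range 1.20 to 13.8). Proliferation genes (0 of 6 higher, median -0.32), skeletal muscle genes (0 of 6, median -0.58) and fat genes (1 of 6, median -0.29) were lower. The other marker lists had medians between -0.13 and 0.61, and no marker passed an adjusted p by edgeR. Summed macrophage markers did not overlap between non-responders (3419 to 4043 CPM) and responders (4251 to 5032 CPM). The same held for summed mast cell markers (65.9 to 74.9 against 79.2 to 114.9 CPM), whereas the sums of all other marker lists overlapped. The log2 level of Ptprc was then subtracted in each tumour. This lowers every gene's difference by the same 0.45, so the order of the genes stays as it was by construction. Cnr2 came to 0.67 (pooled SD 0.26), Fcho1 to 0.45 (0.20) and Socs2 to 0.44 (0.34). Matk (0.25), Trpm2 (0.25), Rasal3 (0.24), Chd7 (0.24) and Tmem140 (0.15) came to under 0.3, and Bmp2k to -0.03. Itgbl1, lower in responders before the subtraction, came to -1.08 (0.43). The groups then did not overlap for 2 genes, Cnr2 and Fcho1, in place of 8. No share over all genes was taken after this subtraction, so nothing is read from that count. Whether the number of leukocytes sets the differences between responders and non-responders was not tested.

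**Figure D2:**
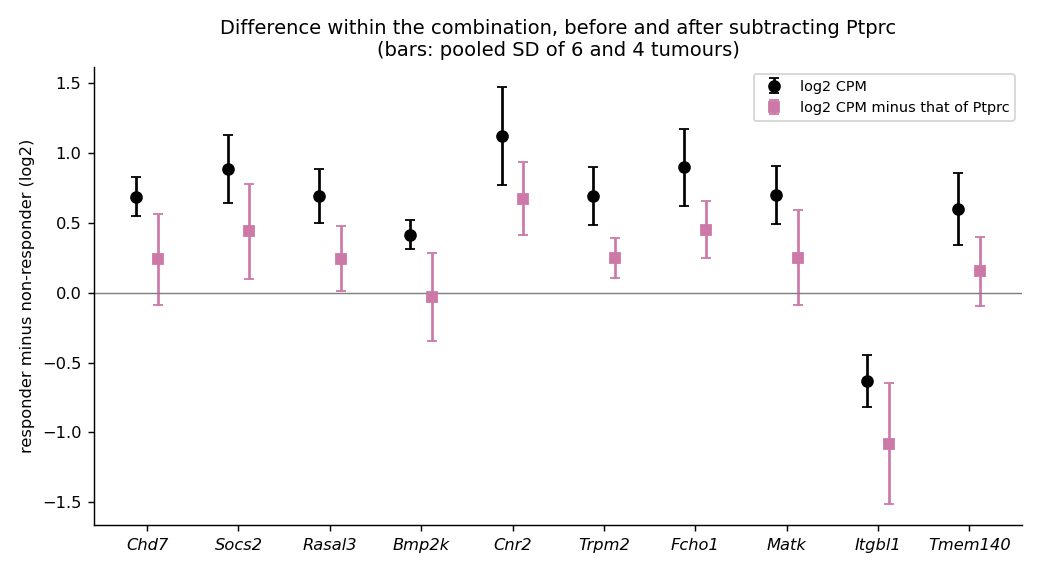
Responder minus non-responder difference in mean log2 CPM (vertical axis) of the 10 genes, as measured (black) and after subtracting the log2 CPM of Ptprc in each tumour (pink), with the pooled SD of 6 and 4 tumours as bars. The subtraction lowers every gene by the same 0.45, so Cnr2 goes from 1.12 to 0.67, Bmp2k to -0.03 and Itgbl1 to -1.08.

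The other 3 treatments are the tumours that did not enter the choice of the genes. Against PBS, tretinoin alone was tested on 9 and 10 tumours. Trpm2 rose most, by 1.07 ± 0.23 on the log2 scale (SE; adjusted p=0.00355). It ranged from 7.92 to 25.5 CPM, median 13.5, in PBS and from 14.7 to 65.1 CPM, median 25.1, in Tretinoin, and all 9 Tretinoin tumours lay above the PBS median, though the groups overlapped. Tmem140 rose by 0.73 ± 0.19 (p=0.0105), Rasal3 by 0.72 ± 0.15 (p=0.00227), Fcho1 by 0.70 ± 0.15 (p=0.00331) and Chd7 by 0.38 ± 0.11 (p=0.0190). These 5 of 10 members compare with 11.5% of the 14340 tested genes called higher and 8.95% called lower. The median over the members was 0.50, against 0.0079 over all genes. Trpm2 was the single member past the threshold and at least 2-fold higher, as were 1.49% of genes, and without the 4 tumours named above it came to 0.97. By name series the estimates of Trpm2, Tmem140, Rasal3 and Fcho1 were larger in series 3, which holds tumour 33, than in series 7. Fcho1 differed by 0.89 and 0.93 in series 3 (against PBS series 1 and 5) and by 0.34 and 0.37 in series 7, where it did not pass, and Rasal3 by 0.90 and 0.90 against 0.44 and 0.44. Chd7 passed in none of the 4 series pairs, nor in the fit of all 39 tumours (adjusted p=0.0744). Whether the series differ was not tested.

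The other 5 members did not pass in that comparison. Socs2 differed by 0.46 ± 0.17 (adjusted p=0.0538), Cnr2 by 0.54 ± 0.21 (p=0.0794) and Itgbl1 by -0.25 ± 0.10 (p=0.0714). Leaving out 1 tumour brought Socs2 past the threshold in 6 of 19 cases, Itgbl1 in 4 and Cnr2 in 2, PBS tumour 14 being among them for each. Without tumours 14, 33, 63 and 82 Cnr2 passed (0.45, adjusted p=0.0414) and Socs2 did not (0.31, p=0.0833). Bmp2k (-0.05 ± 0.11, p=0.759) and Matk (-0.09 ± 0.17, p=0.732) had small estimates, with 7 of 9 Tretinoin tumours under the PBS median in both. Tretinoin tumours 33 and 34 lay above it, tumour 33 with 97.2 CPM of Bmp2k and 25.8 CPM of Matk.

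ICT alone against PBS (10 against 10 tumours) moved more of the genes: 8 members rose and 1 fell, where 14.1% of 14155 genes were called higher and 7.15% lower. Cnr2 ranged from 4.65 to 11.7 CPM, median 6.29, in PBS and from 6.74 to 28.2 CPM, median 15.3, in ICT, and it rose by 1.27 ± 0.22 (adjusted p=0.00113). All 10 ICT tumours lay above the PBS median for Cnr2 and 8 lay above the highest PBS tumour. Trpm2 rose by 1.13 ± 0.33 (p=0.0207), with a wide range of 11.5 to 83.2 CPM, median 24.1, in ICT, set by tumours 63 (83.2 CPM) and 82 (63.9 CPM). Without the 4 tumours the rise of Trpm2 was 0.66 (p=0.0126). Cnr2 and Trpm2 were the members at least 2-fold higher, as were 2.28% of genes.

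The remaining rises under ICT were smaller. Tmem140 rose by 0.89 ± 0.21 (p=0.00733), Fcho1 by 0.77 ± 0.22 (p=0.0194), Socs2 by 0.70 ± 0.15 (p=0.00489) and Rasal3 by 0.65 ± 0.21 (p=0.0301). Chd7 rose by 0.55 ± 0.14 (p=0.0129) and Bmp2k by 0.44 ± 0.10 (p=0.00633). The call of Rasal3 was lost when PBS tumour 12 or 13, or ICT tumour 63 or 82, was left out, with adjusted p up to 0.0655. It was also lost with no filter on low counts (0.65, p=0.0678), but held without all of tumours 14, 33, 63 and 82 (0.43, p=0.0114). Without those 4 tumours Fcho1 rose by 0.45 (p=0.0178). Itgbl1 fell by 0.45 on the log2 scale (SE 0.11, p=0.00669), and 8 of 10 ICT tumours lay under every PBS tumour. Matk differed by 0.35 ± 0.13 (p=0.0602) and passed when PBS tumour 11 or ICT tumour 81 or 85 was left out. The median over the members was 0.68 against -0.016 over all genes. The calls did not hold in both ICT series: against PBS series 1 and 5, series 8 gave 4 and 6 members past the threshold and series 6 gave 0 and 0. Over the whole table series 6 gave 12 genes higher and 2 lower, and 5 higher and 1 lower. Series 8 gave 284 higher and 56 lower, and 1546 higher and 915 lower. The 9 genes kept their direction in series 6, with Cnr2 at 0.95 and 1.19 and Itgbl1 at -0.32 and -0.39. Of the 6 leukocyte markers, 5 rose under ICT and 1 under tretinoin, and of the 7 macrophage markers 7 and 4 rose. Other leukocyte lists differed. Under ICT 5 of 5 monocyte, 4 of 4 neutrophil, 3 of 4 NK cell and 2 of 7 dendritic cell markers rose. No T cell marker (0 of 10) or B cell marker (0 of 4) rose there. Under tretinoin 2 of 5 monocyte, 0 of 4 neutrophil, 1 of 4 NK cell, 1 of 7 dendritic cell, 0 of 10 T cell and 0 of 5 B cell markers rose.

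**Figure D3:**
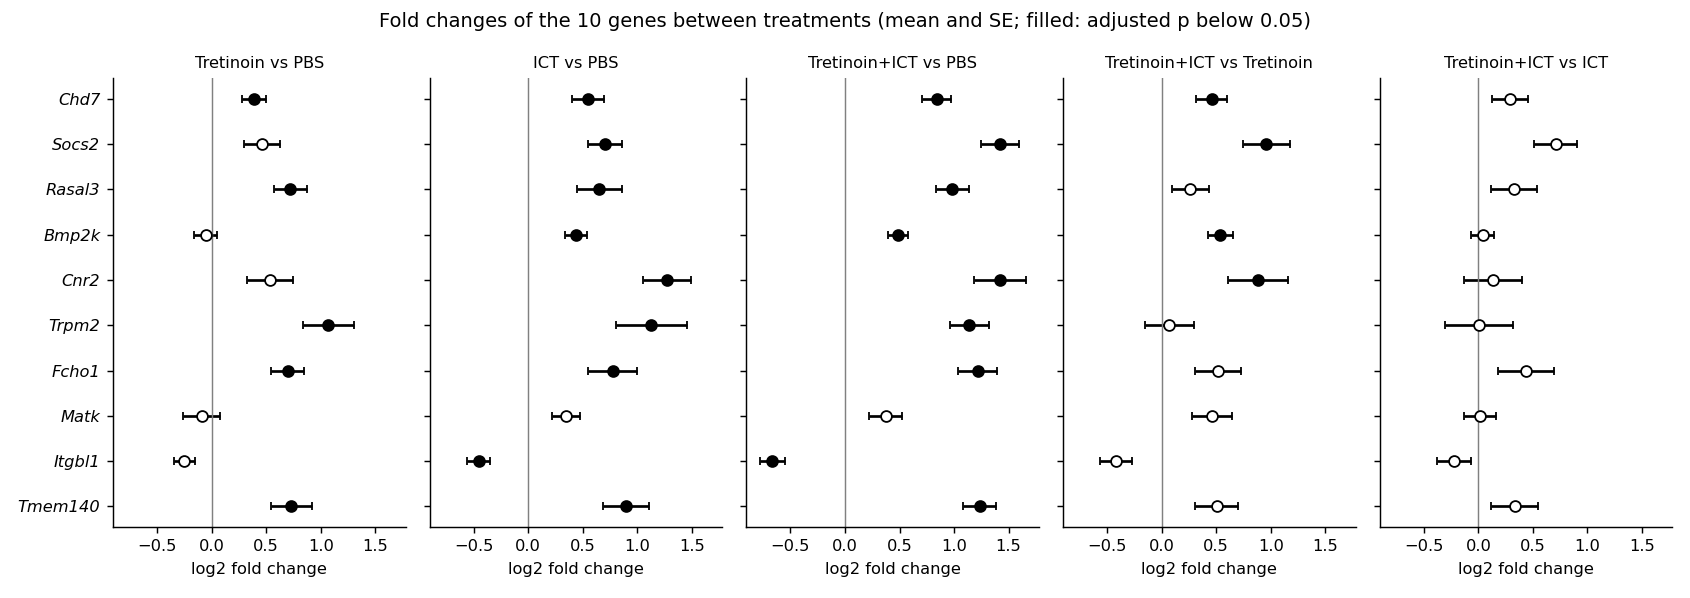
Log2 fold changes (horizontal axis) of the 10 genes in the 5 comparisons of treatments, with SE as bars; filled points have an adjusted p below 0.05 (edgeR). Filled points number 5 for Tretinoin vs PBS, 9 for ICT vs PBS, 9 for Tretinoin+ICT vs PBS, 4 for Tretinoin+ICT vs Tretinoin and 0 for Tretinoin+ICT vs ICT.

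Comparisons with the combination include the 10 tumours whose labels chose the genes, and those with PBS share their controls with the comparisons above. Against PBS, Tretinoin+ICT raised 8 members and lowered 1, where 25.7% of 14265 genes were called higher and 24.5% lower. Socs2 ranged from 8.29 to 14.04 CPM in PBS and from 17.2 to 43.03 CPM under the combination, median 29.1, a rise of 1.42 ± 0.18 (adjusted p=3.17e-06). Chd7 ranged from 27.1 to 48.0 CPM and from 50.5 to 97.1 CPM, median 79.5, a rise of 0.84 ± 0.13 (p=3.43e-05). In these 2 genes every combination tumour lay above every PBS tumour, non-responders included, as 3.74% of genes did in this direction.

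Cnr2 rose by 1.42 ± 0.24 (p=6.82e-05), Tmem140 by 1.23 ± 0.15 (p=3.11e-06), Fcho1 by 1.22 ± 0.18 (p=1.76e-05) and Trpm2 by 1.14 ± 0.18 (p=3.35e-05). With Socs2 these are 5 members at least 2-fold higher, as were 5.45% of genes. Rasal3 rose by 0.98 ± 0.15 (p=2.72e-05) and Bmp2k by 0.48 ± 0.09 (p=0.000212). Itgbl1 fell by 0.67 on the log2 scale (SE 0.12, p=9.18e-05), with 9 of 10 combination tumours under every PBS tumour. Matk was the exception (0.37 ± 0.15, p=0.0508), and passed in 5 of 20 cases in which 1 tumour was left out, 4 of them without a non-responder. The members' median was 1.06, against -0.013 over all genes. All 6 leukocyte markers rose, as did 7 of 7 macrophage and 5 of 5 monocyte markers, against 1 of 10 T cell markers. Of the proliferation markers 5 of 6 fell.

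Against tretinoin alone, 4 members rose with the combination, where 12.3% of 14393 genes were called higher and 9.01% lower. Socs2 rose by 0.96 ± 0.22 (p=0.00672) and Bmp2k by 0.54 ± 0.11 (p=0.00432), and both kept their call whichever tumour was left out. Cnr2 rose by 0.88 ± 0.27 (p=0.0291) and Chd7 by 0.46 ± 0.14 (p=0.0306), but these calls were lost in 8 and 9 of 19 cases, among them those without responder 22, 24, 41 or 42, with adjusted p up to 0.0606 and 0.0595. All 10 combination tumours lay above the Tretinoin median in Chd7, Socs2, Bmp2k and Matk. Matk (0.46 ± 0.18, p=0.0732), Fcho1 (0.52 ± 0.21, p=0.0784), Tmem140 (0.50 ± 0.20, p=0.0759) and Itgbl1 (-0.42 ± 0.15, p=0.0511) did not pass. They passed without Tretinoin tumour 33, as did Rasal3 (0.26 ± 0.17, p=0.259 with it), and the count without that tumour was 9 of 10. Over all genes the calls without it were 2367 higher and 2107 lower of 14465. Trpm2 differed by 0.07 ± 0.22 (p=0.836). None of the 10 was called at least 2-fold higher, where 1.87% of genes were.

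Against ICT alone no member passed (0 of 10, where 1.99% of 14202 genes did in either direction; DESeq2 called 1, Socs2), and 0.366% of genes were called at least 2-fold higher. Socs2 came nearest, at 0.71 ± 0.20 (adjusted p=0.0703). It ranged from 10.7 to 30.9 CPM, median 17.3, in ICT, and 5 of the 10 combination tumours, all of them responders, lay above every ICT tumour. The choice of Socs2 by response fixes that its highest combination tumours are responders, so nothing is read from their label here. Fcho1 (0.43 ± 0.26, p=0.356), Tmem140 (0.33 ± 0.22, p=0.397), Rasal3 (0.33 ± 0.21, p=0.406), Chd7 (0.29 ± 0.17, p=0.347) and Itgbl1 (-0.22 ± 0.15, p=0.426) had the next sizes. Cnr2 (0.14 ± 0.27, p=0.798), Bmp2k (0.04 ± 0.10, p=0.863), Matk (0.02 ± 0.15, p=0.966) and Trpm2 (0.01 ± 0.31, p=0.994) had estimates near 0. This comparison rested on ICT tumours 63 and 82: without tumours 14, 33, 63 and 82, 6 members passed, namely Socs2 (0.89, p=0.00901), Fcho1 (0.82, p=0.0161), Rasal3 (0.65, p=0.0161), Trpm2 (0.61, p=0.0375), Tmem140 (0.60, p=0.0337) and Chd7 (0.47, p=0.0399). Over all genes the calls went from 223 higher and 60 lower to 1372 and 1048. The leaving out of high ICT tumours itself raises such differences, so these values are given beside the others and not in their place.

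Whether tretinoin and ICT together departed from the sum of their separate effects was tested as an interaction over all 39 tumours. No member passed (0 of 10, where 0.307% of 14977 genes did; by DESeq2 also 0 of 10), and 1415 genes had an unadjusted p below 0.05. Trpm2 had the largest estimate, -1.06 ± 0.40 (adjusted p=0.360), and came to -0.36 without the 4 tumours.

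The labelled groups were also set against each single agent, as a description. All 6 responders lay above every PBS tumour in 8 genes (3 of 6 in Matk) and below every PBS tumour in Itgbl1, as 10% and 8.27% of 14265 genes did in these directions. The 4 non-responders lay above the PBS median in 8 genes as well, though all 4 lay above every PBS tumour only in Chd7 and Socs2, as 4.55% of genes did. Against the ICT median, 0 of 4 non-responders were higher in Bmp2k, Cnr2 and Matk, 1 of 4 in Chd7 and Trpm2, 2 of 4 in Fcho1, and 3 of 4 in Socs2, Rasal3 and Tmem140. The responders were above the ICT median in all 6 tumours for 8 of the 9 genes and in 5 for Matk. The choice of the genes by response bears on all of these counts, those against PBS included, so nothing is read from them. For the counts against ICT the share of all genes was not taken.

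Some tumours given a single agent reached the range of the responders. Of the 10 ICT tumours, 7 were at or above the lowest responder in Matk, 5 in Cnr2, 4 in Bmp2k, 3 in Tmem140, 2 each in Chd7, Rasal3, Trpm2 and Fcho1, and 1 in Socs2. ICT tumour 63 was above the highest responder in Chd7 (99.5 CPM), Rasal3 (66.6), Bmp2k (123), Trpm2 (83.2), Fcho1 (25.5) and Tmem140 (40.1). In Socs2 it stood at 30.9 CPM, within the responders' range. Of the 9 Tretinoin tumours, tumour 33 was above the lowest responder in 8 of the 9 genes, the exception being Chd7 (69.1 CPM). No PBS tumour reached the lowest responder in any of these genes except Matk, where tumour 11 did with 23.9 CPM.

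**Figure D4:**
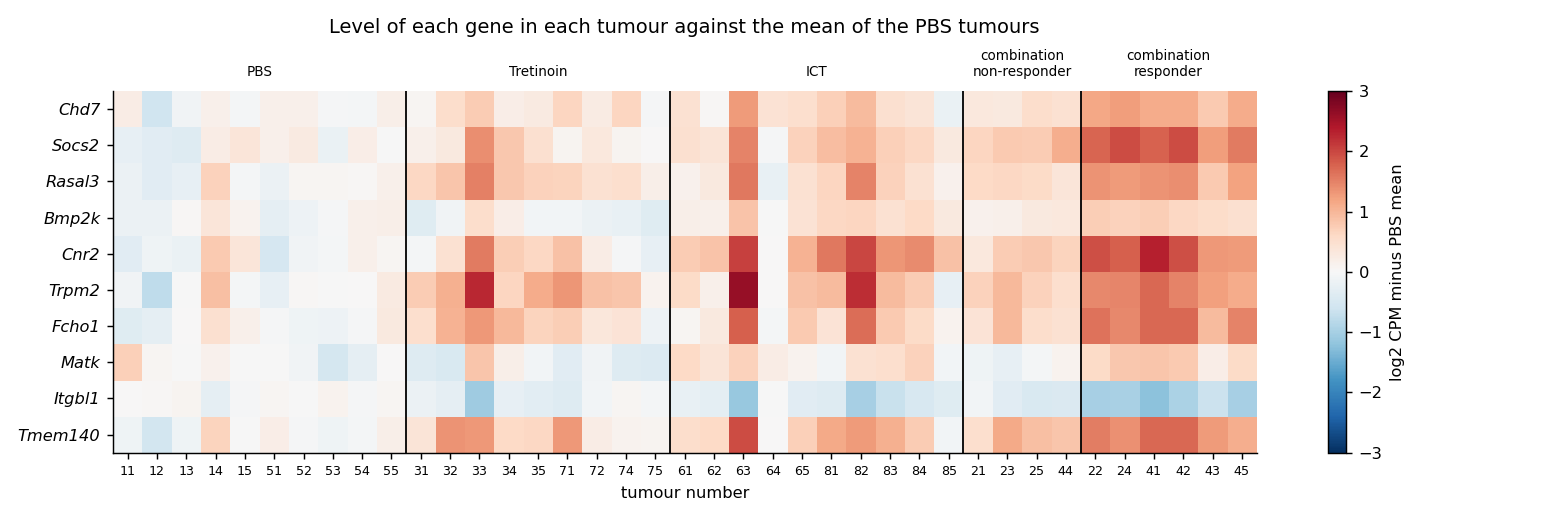
Log2 CPM of the 10 genes (rows) in the 39 tumours (columns, by number and group), each minus the mean of the 10 PBS tumours; red is higher and blue lower than PBS. Tumours 33, 63 and 82 resemble the responder columns, and Itgbl1 is blue where the other genes are red.

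In the 29 tumours without the combination, each gene was set against Ptprc, with both centred within treatment so that differences between treatments did not enter, and p from 100000 permutations within treatment (two-sided, adjusted over the 10 genes). Trpm2 followed Ptprc most closely (r=0.95, rho=0.85), then Tmem140 (r=0.92, rho=0.90), Rasal3 (r=0.89, rho=0.83), Chd7 (r=0.85, rho=0.75) and Fcho1 (r=0.84, rho=0.76). Cnr2 (r=0.79, rho=0.75), Socs2 (r=0.74, rho=0.73) and Bmp2k (r=0.73, rho=0.70) followed it less closely, and Itgbl1 ran against it (r=-0.79, rho=-0.74). For these 9 genes the permutation p, adjusted, was at most 2.22e-05 for r and 1e-04 for rho, where 1e-05 is the smallest unadjusted p these permutations can give. An r of at least 0.7 was reached by 8 of the 10 genes and by 13.1% of 12121 genes, and an r of at most -0.7 by Itgbl1 and 10.1% of genes, a limit set after the values were seen. Leaving out the 2 tumours farthest in Ptprc, ICT tumours 63 and 85, kept r between 0.67 and 0.93 for the 8 positive genes and at -0.79 for Itgbl1. The order of the genes depended on the marker. With the mean log2 level of the 6 general leukocyte markers in place of Ptprc, Tmem140 (r=0.93), Rasal3 (0.92) and Trpm2 (0.92) stood highest. Cnr2 then came to 0.87, Fcho1 to 0.85, Socs2 and Bmp2k to 0.78, Chd7 to 0.72 and Itgbl1 to -0.88.

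Matk stood apart from the rest. Its r of 0.39 had an adjusted permutation p of 0.0306 and its rho of 0.35 one of 0.0727, r fell to 0.26 without tumours 63 and 85, and within PBS it was -0.02. Within treatments the other genes had r between 0.58 and 0.97 (Itgbl1, -0.83 to -0.76). Without tumours 14, 33, 63 and 82 (25 tumours left), Matk came to r=0.13 and Itgbl1 to r=-0.48 (adjusted permutation p=0.0530, for rho 0.00689), while the other 8 genes stayed past the threshold with r between 0.50 and 0.88. With all 29 tumours and the mean of the 6 leukocyte markers in place of Ptprc, Matk passed on both measures. Its r was 0.50 (adjusted permutation p=0.00644) and its rho 0.44 (p=0.0235).

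**Figure D5:**
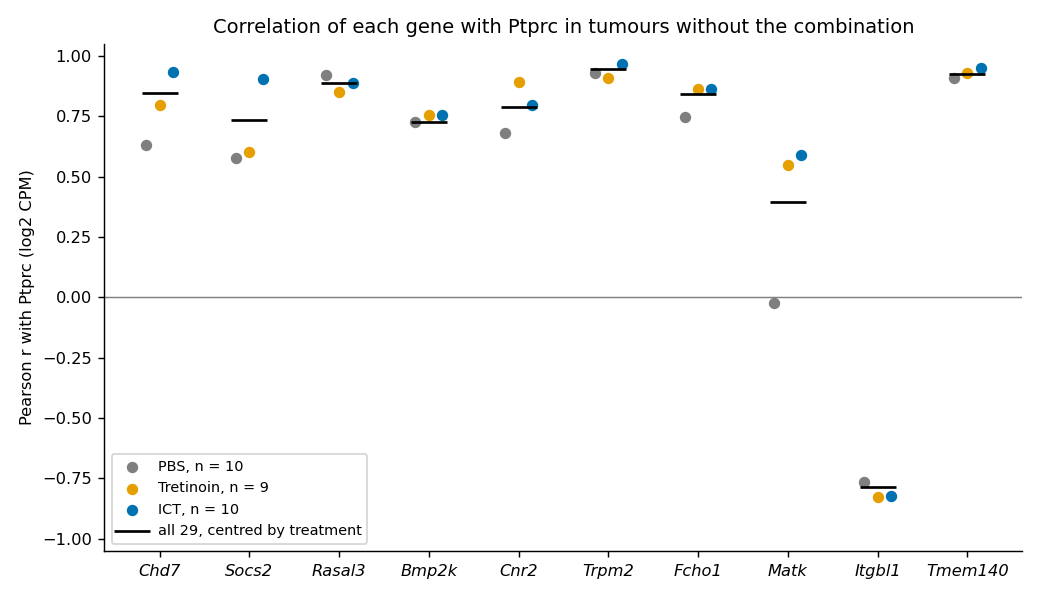
Pearson r of each gene's log2 CPM with that of Ptprc (vertical axis) within PBS, Tretinoin and ICT tumours (coloured points) and over all 29 centred by treatment (black bars). Trpm2 and Tmem140 are near 0.9 in all 3 treatments, Matk ranges from -0.02 to 0.59, and Itgbl1 lies near -0.8.

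The genes also varied together, Matk least. Over the same 29 tumours, as a description, the 36 pairs of the 9 genes higher in responders had r between 0.32 and 0.94 with a median of 0.78, and the 9 pairs with Itgbl1 between -0.91 and -0.55. Leukocyte markers varied among these tumours too, and their part was not tested. Without the 4 tumours that stood apart the medians were 0.61 (35 of 36 pairs positive) and -0.57. The pairs of Matk with the other genes higher in responders then lay between -0.045 (Rasal3) and 0.11 (Socs2), so Matk no longer varied with them. No range was taken over pairs of other genes. Among 12121 genes, those most like Fcho1 were Zap70 (r=0.96), a kinase of the T cell receptor, Acap1 (0.94) and Sept1 (0.94). Those most like Cnr2 were Nrros (0.96), the Fc receptor gene Fcgr3 (0.95) and the antigen-loading gene H2-DMb2 (0.94), and those most like Bmp2k were Cd84 (0.93), Cnr2 (0.93) and Bach1 (0.93). Trpm2 was most like Ikbke (0.97), Cd38 (0.96), an enzyme that makes ADP-ribose, and the integrin gene Itgal (0.96).

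Socs2 was most like Pdcd1lg2 (0.90), which encodes the second ligand of PD-1, Slc7a2 (0.90) and Itgax (0.89). Rasal3 was most like Pik3r6 (0.97), Sema4a (0.97) and Plbd1 (0.97), and Tmem140 like the complement gene C1rb (0.97), Fgl2 (0.97) and Il13ra1 (0.97). Chd7 was most like Dock10 (0.95), Ddi2 (0.94) and Xist (0.92). Matk had no gene above 0.76 (Galnt6, then Galm at 0.74 and Aldoc at 0.73). Itgbl1 was most like Calu (0.96), Ift74 (0.95) and Kpnb1 (0.95).

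Genes that share a pathway with the members were taken as lists, and those named as changed had an adjusted p below 0.05 over all genes (edgeR). Their counts stand against 11.5% of all genes higher and 8.95% lower under tretinoin, 14.1% and 7.15% under ICT, and 25.7% and 24.5% with the combination against PBS. Around Socs2, 6 of 9 genes of the SOCS family and STAT5 targets rose under ICT and none fell, 3 rose and 1 fell under tretinoin, and 6 rose and 2 fell with the combination against PBS, with median log2 changes of 0.53, 0.087 and 0.83. Cish, the SOCS family gene closest to Socs2 in its control by STAT5, rose by 1.34, 0.97 and 2.12 in these 3 comparisons. Pim1, a kinase induced by STAT5, rose by 0.71, 0.70 and 1.79, and Socs6 fell by 0.31 under tretinoin and by 0.36 with the combination. Pim1 (1.07) and Socs3 (0.72) were also higher with the combination than with ICT alone. Of the JAK kinases and STAT5 genes, 3 of 5 rose under each single agent and 5 of 5 with the combination, Tyk2 by 0.65 and Jak3 by 0.62 in the last. Of the ligands, Csf2 (GM-CSF) rose by 3.25 and Il15 by 0.80 with the combination, and of the receptors Il2rg by 0.96.

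Of 9 other Ras GTPase activating proteins, 1 rose and 3 fell under tretinoin, 2 rose under ICT, and 2 rose and 2 fell with the combination against PBS (Rasa4 0.75, Rasal2 -0.55), with a median of -0.098, so that the shares with the combination were near those of all genes. The Ras exchange factors, which act the opposite way, rose in 4 of 4 cases with the combination, Rasgrp1 by 1.92. Around Matk, Csk rose by 0.35 under tretinoin, 0.29 under ICT and 0.69 with the combination, and Pag1, the adaptor that holds Csk at the membrane, by 0.66, 0.95 and 1.06, whereas Matk itself passed in none of the 3. Of the 9 genes of that list, 7 rose with the combination, among them Fgr (1.049).

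Around Cnr2, Naaa, which breaks down fatty acid ethanolamides, rose by 1.13 under ICT, 0.63 under tretinoin and 1.72 with the combination, and the receptor gene Gpr55 by 1.32 with the combination; 4 of 8 genes of that list rose there. Around Trpm2, Cd38 rose by 2.39 under tretinoin and by 2.62 with the combination, and Bst1, a relative of Cd38, by 1.45 under ICT and 1.94 with the combination, while no other TRPM channel changed by more than 1 on the log2 scale (Trpm5, -0.96 with the combination). Of the 9 tested genes of that list, 4 rose and 4 fell with the combination against PBS (median -0.059). Under tretinoin 1 rose and 1 fell, and under ICT 2 rose and 1 fell. The clathrin list around Bmp2k and Fcho1 moved little, with 5 of 14 genes higher with the combination against PBS, Picalm most (0.53), and a median of 0.10. None of the 8 other CHD remodellers rose in any of the 3 comparisons, and 3 fell with the combination, Chd3 most (-0.25), where Chd7 rose by 0.84. Among the 8 integrin beta genes, to which Itgbl1 is related, Itgb2, the leukocyte beta chain, rose by 1.39 and Itgb8 fell by 1.003 with the combination.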

How the data were processed

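RNA from 39 whole AB1-HA tumours was sequenced on a NovaSeq instrument. Per the study's methods and the submitters' processing notes, reads were demultiplexed with bcl2fastq 2.20.0.422, aligned with HISAT2 2.0.4 to a mouse genome named mm11 and counted on genes with SummariseOverlaps. The authors deposited raw counts per gene, whole numbers without normalization. Strand mode and the handling of reads with several alignments are not given in the sources used here, so reads of overlapping or antisense genes could be shared. Columns were matched to samples by title, and groups come from the labels.

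The 10 genes, the pathway and marker lists and the tests were chosen with earlier results of these data known. Named genes are the members, the 3 genes most like each, up to 4 genes past adjusted p per pathway list, marker genes, and genes next in the ranking by response; Sept1, Socs6 and others of a list beyond its 4 largest were named after their values were seen. Tests used edgeR 4.0.16 and DESeq2 1.42.0 (R 4.3.3), and permutations scipy 1.17.1 and numpy 2.4.6 (Python 3.11.15). Each comparison was fitted on its own tumours and all genes (TMM, filterByExpr, robust quasi-likelihood test), the interaction on all 39. Calls required an adjusted p (Benjamini-Hochberg) under 0.05, and 2-fold calls also an absolute log2 change of 1. SE is the absolute log2 change over the square root of F. Log2 CPM used a prior count of 2. Per the study's methods 1 tumour was resected from each mouse, so tumours stand for mice. The fits were tested on simulated data. Alternatives were a minimum of 10 counts per tumour, no filter on low counts, DESeq2, edgeR with the size factors of DESeq2, 1 fit over all tumours, no fold minimum, series pairs, series as a block for the response groups, values per Ptprc, and tumours left out, of which leaving out single tumours in treatment comparisons was chosen after seeing the data. Coordinates are from GENCODE M21 (GRCm38). A planned search of promoters for motifs is not reported here. Listed genes not found in the table were not used here. The value of 1 listed gene is not reported here.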

Additional observations from a re-analysis of the deposited data

Results flagged for a closer look

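Of 50 sets of values (10 genes in 5 groups), 15 held a tumour whose gap to the nearest other, over the range of its group, passed Dixon's 95% limit; chance alone flags about 1 in 20 such sets, and the 10 genes share tumours. In PBS, tumour 14 was high in Rasal3 (36.0 CPM, the others at most 24.7), Trpm2 (25.5, others at most 16.3) and Tmem140 (16.3, others at most 11.7) and low in Itgbl1 (168, others at least 199). PBS tumour 12 was low in Chd7 (27.1, others at least 38.2) and PBS tumour 11 high in Matk (23.9, others at most 15.8). In Tretinoin, tumour 33 was high in Socs2 (28.9, others at most 19.4), Rasal3 (63.9, others at most 39.4), Cnr2 (19.98, others at most 12.4), Trpm2 (65.1, others at most 34.3) and Matk (25.8, others at most 16.5) and low in Itgbl1 (97.1, others at least 155). In ICT, tumour 63 was high in Tmem140 (40.1, others at most 25.1). Responder 43 was low in Chd7 (70.9, other responders at least 88.2) and Rasal3 (38.5, others at least 51.9). The leukocyte marker sum was 2046 CPM in tumour 14, 2366 in tumour 33 and 3586 in tumour 63, each the highest of its group, and 1942 in tumour 43, the lowest of the responders; its part in these values was not tested.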

How the results depend on the processing

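The replicate numbers only name tumours in accession order. No paired analysis was possible because no label pairs tumours between groups.

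Members past adjusted p were fewer between single name series, which hold at most 5 tumours each. ICT vs PBS gave 0, 0, 4 and 6 in place of 9 (series 6 against 1 and 5, series 8 against 1 and 5), Tretinoin vs PBS 2, 4, 0 and 2 in place of 5 (3 and 7 against 1 and 5), and Tretinoin+ICT vs Tretinoin 0, 2, 0 and 4 in place of 4 (2 and 4 against 3 and 7). Past 2-fold they were 0, 0, 1 and 1 in place of 2, 0, 1, 0 and 0 in place of 1, and 0, 1, 0 and 1 in place of 0. Tretinoin+ICT vs PBS kept 7 to 10. Over all genes the calls were fewer too, given here as higher and lower in the same order. ICT vs PBS had 12 and 2, 5 and 1, 284 and 56, and 1546 and 915. Tretinoin vs PBS had 761 and 455, 1148 and 706, 208 and 57, and 403 and 145. Tretinoin+ICT vs Tretinoin had 49 and 43, 675 and 421, 30 and 17, and 510 and 157.

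For Tretinoin+ICT vs ICT, 0 members past adjusted p became 1 by DESeq2, 1 with all 39 tumours in 1 fit and 6 without tumours 14, 33, 63 and 82. Against Tretinoin, 4 became 2 with no low count filter and 9 without those tumours, which also gave 2 members past 2-fold in place of 0. The same omission left 0 members past 2-fold for Tretinoin vs PBS (1 with all) and 1 for ICT vs PBS (2 with all). Dropping the fold minimum gave 5, 9, 4 and 9 members in place of 1, 2, 0 and 5 for Tretinoin vs PBS, ICT vs PBS, Tretinoin+ICT vs Tretinoin and Tretinoin+ICT vs PBS, by construction. Per Ptprc, the median absolute difference between responders and non-responders went from 0.71 to 0.25, the genes without overlap from 8 to 2, and Bmp2k to -0.032. The subtraction lowers every gene's difference by the same 0.45, and no share of all genes without overlap was taken after it.

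With 1 tumour left out, the members past adjusted p numbered 5 to 8 (Tretinoin vs PBS), 8 to 10 (ICT vs PBS), 0 to 1 (Tretinoin+ICT vs ICT), 2 to 9 (vs Tretinoin) and 9 to 10 (vs PBS), those past 2-fold 0 to 1, 1 to 2, 0 to 0, 0 to 2 and 5 to 6, the genes without overlap by response 8 to 10 and their median absolute difference 0.68 to 0.74.

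Directions turned only for estimates that did not pass. Between single series Tretinoin vs PBS gave 0.023 and 0.089 for Bmp2k (series 3 against 1 and 5) and 0.27 for Matk (3 against 5). Tretinoin+ICT vs ICT gave -0.10 for Bmp2k, -0.23 for Cnr2 and 0.027 for Itgbl1 (2 against 8), -0.12 and -0.055 for Trpm2 and -0.17 and -0.080 for Matk (2 against 6 and 8). Tretinoin+ICT vs Tretinoin gave -0.20 and -0.022 for Trpm2 (2 and 4 against 3). The interaction without the 4 tumours gave 0.12 for Chd7, 0.15 for Fcho1 and -0.14 for Itgbl1. With 1 tumour left out the ranges were -0.26 to 0.0077 for Matk in Tretinoin vs PBS, -0.0034 to 0.091 for Bmp2k, -0.090 to 0.31 for Trpm2 and -0.036 to 0.072 for Matk in Tretinoin+ICT vs ICT, and -0.016 to 0.31 for Trpm2 in Tretinoin+ICT vs Tretinoin. The causes were not tested. Groups of 6 and 4 and the few tumours per series limit what these data can show.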
